A study of Homo sapiens with 6 samples.

Results

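Long noncoding RNAs (lncRNAs) are transcripts that are spliced and processed much like messenger RNAs but carry no long reading frame that is known to be translated. Some act where they are made: NEAT1 is the scaffold of paraspeckles, MALAT1 gathers in nuclear speckles beside splicing factors, and KCNQ1OT1 silences imprinted neighbours. Others act in the cytoplasm, such as NORAD, which holds PUMILIO proteins, and many more share a promoter or overlapping exons with a coding gene and have no known role.

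The genes described here are the 150 most abundant lncRNAs of HCT116 cells, a human colorectal cancer line, outside the host genes of small nucleolar RNAs. They are chosen by their measured level: GENCODE release 44 types 14367 of the 58395 genes in the files as lncRNA, 14335 remain once the SNHG genes, GAS5, EPB41L4A-AS1, ZFAS1 and DANCR are set aside, 6294 of these hold a count above 0, and the first 150 by mean expected count over all 6 libraries are kept. The choice does not use the comparison between the groups, so fold changes are tested and levels are only described. The edge of the set is not a gap: NUP153-AS1 and LINC00294, the last 2 genes kept, average 172 and 171 expected counts per library, and MMP25-AS1 and ENSG00000279159, just outside, average 170.7 and 170.5.

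The groups are 3 libraries from HCT116 cells that carry a non-target hairpin (shControl) and 3 from HCT116 cells that carry a hairpin against STBD1 (shSTBD1), a receptor that links glycogen to autophagy. Both hairpins are delivered by lentivirus with drug selection, and nothing says that the lines are single clones. Each library comes from total RNA of cells grown in the same medium, and the methods call them biological replicates without saying whether each is a separate infection, so p-values measure the spread between these libraries. The question of the comparison is which of the abundant lncRNAs differ between cells with lowered and with normal STBD1.

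STBD1 (ENSG00000118804, GRCh38 chromosome 4, 76306733 to 76311130) checks the labels. It is at 16.2, 15.7 and 14.4 CPM (TMM-scaled counts per 1e6 counts) in shControl replicates 1 to 3 and at 11.6, 9.06 and 9.18 in shSTBD1, so the groups do not overlap. On the log2 scale it changes by -0.64 (edgeR; SE 0.098; adjusted p 2.9e-04), a partial loss. Library totals run from 17689097 to 21668274 expected counts. Replicate 1 of shControl stands apart: its counts differ from those of the other shControl libraries by a chi-square of 6.20 and 4.93 per gene, against 1.65 to 2.02 for the other pairs within a group. Of the epithelial markers EPCAM, KRT8, KRT18, KRT19, KRT20, CDH1, CDX1, CDX2, VIL1 and CEACAM5, 7 have enough counts to be tested. Of these 7, 4 are higher in shSTBD1 (57.1%, against 8.22% of all tested genes) and 0 lower. CDX1 and CEACAM5 are at 0 in every library. The summed level of the 10 epithelial markers is 3349 to 3588 CPM in shControl and 3974 to 4063 in shSTBD1. Among 6 fibroblast markers COL1A1 alone has enough counts (34.9 CPM in shControl) and LUM is at 0, with sums of 31.3 to 39.5 and 37.3 to 40.9 CPM. Among 6 blood and endothelial markers PTPRC, CD3E and HBB are at 0, while CD68 is higher by 0.47 on the log2 scale (adjusted p = 0.0027, edgeR), and the sums are 8.81 to 11.3 and 14.0 to 14.9 CPM. The part of these shifts in the lncRNA results was not tested.

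The 150 lncRNAs hold a small, steady share of the libraries, 0.541% ± 0.0073 of all counts in shControl and 0.550% ± 0.0098 in shSTBD1 (SD, n = 3). The mean expected count runs from 171 to 10234 with a median of 296. The first 5 genes hold 37.5% of the counts of the set and the first 10 hold 51.4%, as the plot of counts by rank shows. The set depends on length: only 81 of the 150 would also be among the first 150 by TPM, which divides by effective length.

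**Figure D1:**
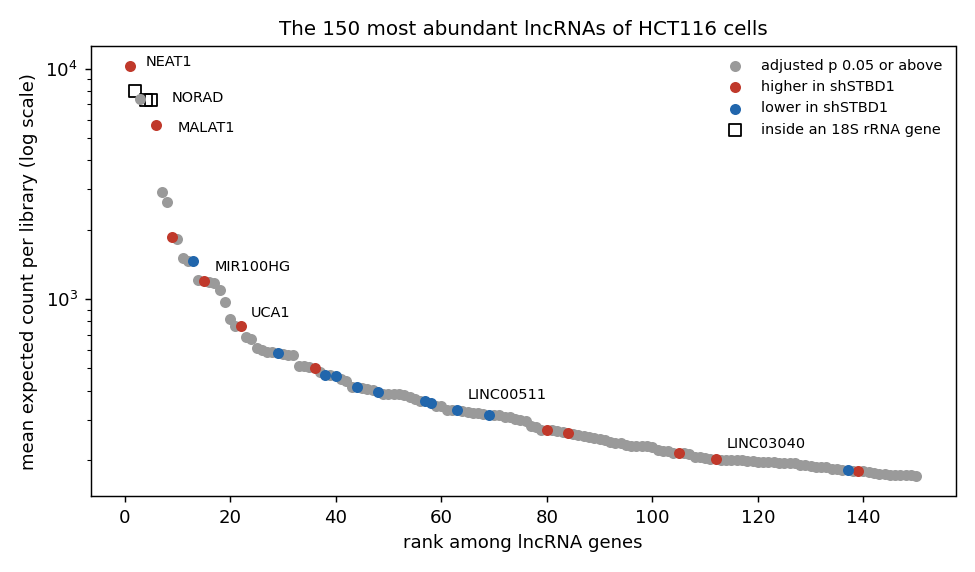
Mean expected count per library (log scale) of the 150 lncRNAs against their rank. Red and blue points are higher and lower in shSTBD1 at an adjusted p under 0.05, and open squares mark the 3 genes inside 18S rRNA genes; the called genes are spread along the whole range from NEAT1 at 10234 down to LINC00861 at rank 139.

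3 of the first 5 genes by count lie on genes for ribosomal RNA. ENSG00000280800 (rank 2), ENSG00000280614 (rank 4) and ENSG00000281181 (rank 5) are single stretches of 923 bases on the minus strand of chromosome 21, at chr21:8210384-8211306, chr21:8393419-8394341 and chr21:8437629-8438551. Each lies wholly inside a RefSeq gene for 18S ribosomal RNA, RNA18SN2, RNA18SN3 and RNA18SN1, and the 3 sequences differ from each other at 0 of 923 bases. Reads from any of them cannot be assigned to one copy: the posterior standard deviation that RSEM gives for the count is 27.2%, 29.4% and 23.9% of the count. ENSG00000280614 and ENSG00000281181 have the same 6 values, 374, 341 and 367 CPM in shControl and 376, 395 and 374 in shSTBD1. ENSG00000280800 has those values too except in shControl replicate 1, where it is at 607 CPM. Whether the counting used strand is not given in the sources used here, and without strand reads of these genes and of 18S rRNA cannot be told apart. The 3 genes do not pass the test. For ENSG00000280800 edgeR gives a log2 ratio of -0.20 (SE 0.14, adjusted p = 0.36), which turns to 0.11 without shControl replicate 1 (adjusted p = 0.015). These 3 genes hold 21.1% of the counts of the set. Over the other 147 the summed level averages 4280 CPM with shControl (SD 13.7, n = 3) and 4338 CPM with shSTBD1 (SD 70.9, n = 3), with ranges of 4265 to 4290 and 4262 to 4403 that overlap. Replicate 1 of shControl lies outside the other 5 libraries in 63 of these 147 genes, against 42 to 52 for each of the other libraries.

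Outside the 18S rRNA genes, the highest levels per length are those of ENSG00000258232, NEAT1, MALAT1 and NORAD. In TPM, ENSG00000258232 is at 242 ± 40.2 in shControl, NEAT1 at 162 ± 16.8, MALAT1 at 104 ± 15.4 and NORAD at 87.1 ± 0.81 (SD, n = 3). NEAT1 is above MALAT1 by more than the spread of both, while MALAT1 and NORAD lie about 1 SD of MALAT1 apart and are not separated. CHASERR, which limits the expression of its neighbour CHD2, follows at 50.2 ± 3.65 and OIP5-AS1 at 36.9 ± 2.84. GABPB1-AS1 ranks 7 by count but 46 by TPM, at 20.5 ± 3.22. ENSG00000258232 shares most of its exon bases with TUBA1C on the other strand and is described with the overlapping genes.

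All 150 lncRNAs hold enough counts to be tested. At an adjusted p under 0.05, 22 differ between shSTBD1 and shControl (14.7%), against 15.8% of the 15566 genes tested. 11 are higher and 11 lower, where 8.22% of all tested genes are higher and 7.54% lower. Without the 3 genes inside 18S rRNA genes, a choice made after seeing the data, the counts are also 11 and 11. At the unadjusted p of 1e-5 that the methods use, 3 of the 150 pass (UCA1, LINC01128 and LINC00511), against 2.38% of all tested genes. The groups do not overlap in 43 (28.7%), against 33.6% of all tested genes. The share of called genes is thus near that of the whole table, and below the 21.6% of the 10046 other tested genes with mean counts in the same range. The median log2 fold change is -0.037 (0.0023 over all tested genes), the median absolute value 0.12 (0.11 over all tested genes) and the range -0.49 to 0.52. In the first 50 by rank 12 are called, in the next 50 6 and in the last 50 4, while the median standard error grows from 0.060 to 0.10. The plot of fold change against level shows the 150 genes within the cloud of all tested genes.

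**Figure D2:**
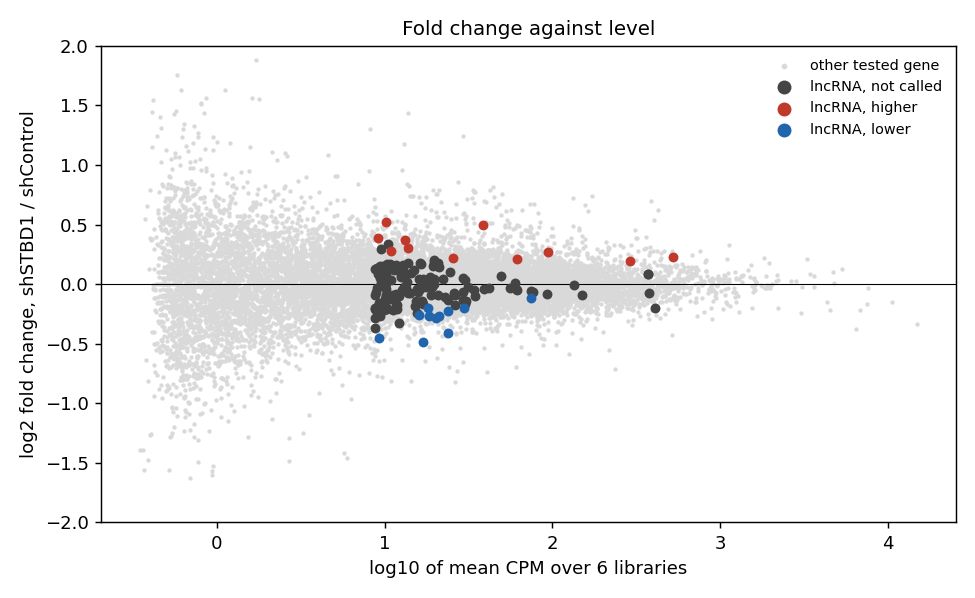
Log2 fold change (shSTBD1 over shControl) against log10 of the mean CPM over 6 libraries for all tested genes (grey, 6 of them beyond the plotted range of 2 in either direction) and for the 150 lncRNAs (dark, red where higher, blue where lower). The lncRNAs span -0.49 to 0.52.

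Not all 22 calls are equally firm. DESeq2 calls 10 of the 22 (and 14.2% of the genes to which it gives an adjusted p), and 9 are called by DESeq2 and also by edgeR whichever library is left out: UCA1, LINC03040, PRECSIT, NEAT1, MIR100HG, LINC00511, LINC01128, PSMA3-AS1 and BAIAP2-DT. Limma on log2(TPM + 1) keeps 2, UCA1 and LINC00511, and calls 1.88% of all tested genes. The plot of the called lncRNAs by library shows which of them have separate groups.

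**Figure D3:**
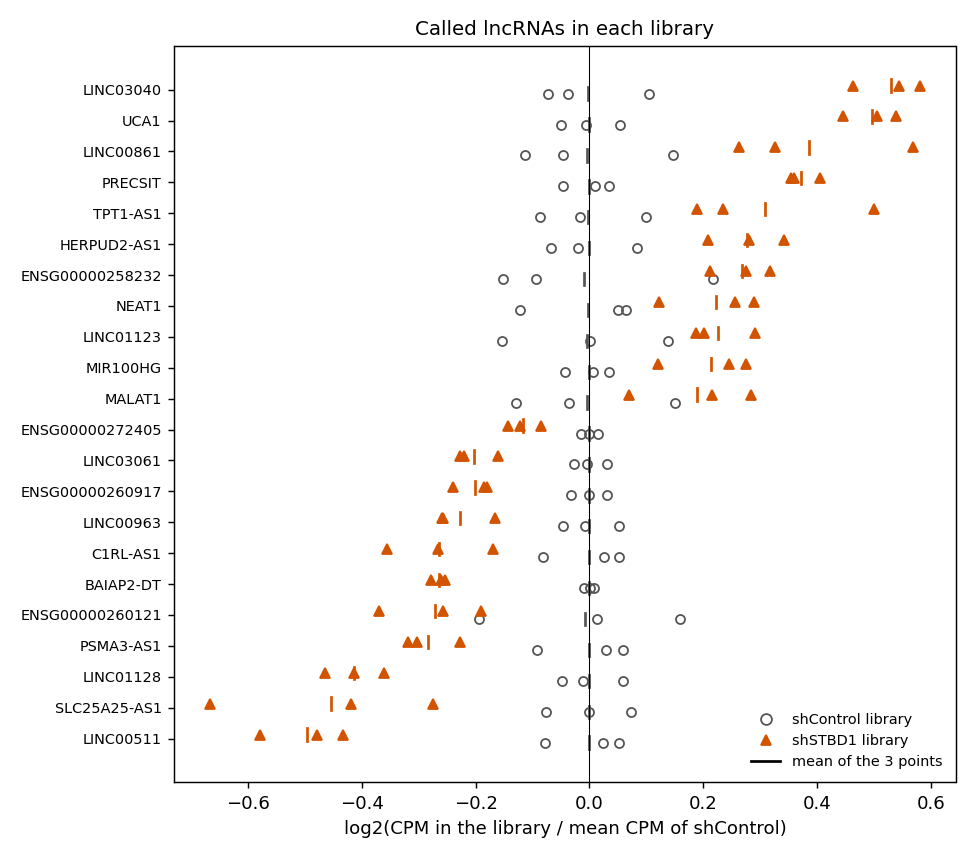
Each library's CPM over the shControl mean, on the log2 scale, for the 22 called lncRNAs (open circles shControl, triangles shSTBD1, short lines the mean of 3). The groups are separate in 19 of the genes and overlap in MALAT1, ENSG00000258232 and ENSG00000260121.

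Among the genes that are higher in shSTBD1, UCA1 has the smallest p. UCA1 (ENSG00000214049, chromosome 19, 15828206 to 15836328) was found as a transcript abundant in bladder cancer and is induced by low oxygen in several cell types. It is at 31.9, 33.3 and 31.0 CPM in shControl and 45.6, 43.7 and 46.6 in shSTBD1, and every shSTBD1 library is above every shControl library. edgeR gives a log2 ratio of 0.49 with a standard error of 0.051 and an adjusted p of 5.4e-06, and it stays called under each of 14 other settings, with 0.034 as the highest adjusted p. LINC03040 has the largest fold change of the set, 0.52 (standard error 0.091, adjusted p = 9.3e-04), from 8.15, 9.0 and 7.96 CPM in shControl to 12.5, 11.5 and 12.2 in shSTBD1. PRECSIT, named as a transcript of carcinomas that p53 regulates, is at 11.7, 11.9 and 11.2 CPM in shControl and 14.8, 15.4 and 14.9 in shSTBD1. Between the groups the log2 ratio is 0.37, its standard error 0.076 and edgeR's adjusted p 0.0033. In both genes the groups are well apart.

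NEAT1 (ENSG00000245532, chromosome 11, 65422774 to 65445540), the most abundant of the 150, is at 441, 502 and 497 CPM in shControl and 522, 573 and 586 in shSTBD1. The lowest shSTBD1 library is above the highest shControl library, and the lowest value of all is that of shControl replicate 1. The change is 0.22 on the log2 scale, with 0.048 as its standard error and 0.0045 as the adjusted p in edgeR. On the TPM scale the change is within the spread, 162 ± 16.8 against 177 ± 8.23 (SD, n = 3), and limma on log2(TPM + 1) gives an adjusted p of 0.41. MALAT1 is at 300, 247 and 264 CPM in shControl and 284, 314 and 329 in shSTBD1, so shSTBD1 replicate 1 lies below shControl replicate 1 and the groups overlap. On the log2 scale it changes by 0.19 (edgeR; SE 0.059; adjusted p 0.036). The call ends without shControl replicate 2 (adjusted p = 0.14), shControl replicate 3 (0.11), shSTBD1 replicate 2 (0.14) or shSTBD1 replicate 3 (0.18), and with DESeq2 (0.22). Exons of the antisense gene TALAM1 cover 8121 of the 10434 exon bases of MALAT1. Together NEAT1 and MALAT1 are the 2 called higher among 4 genes of nuclear bodies and chromatin in the set. That is 50% of a short list, against 8.22% of all tested genes. CHASERR (log2 fold change -0.067, adjusted p = 0.52) and KCNQ1OT1 (0.043, adjusted p = 0.78, both edgeR) do not pass.

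The genes for proteins that make, process or degrade such RNAs give a wider view. Of 55 tested genes of this kind (the symbol MATR3 stands for 2 of them), 5 are higher (9.09%, against 8.22% of all tested genes) and 13 lower (23.6% against 7.54%). In all 32.7% are called, beside 15.8% of all tested genes, while DESeq2 calls 4 higher and 5 lower. Their median log2 fold change is -0.016 beside 0.0023 over all tested genes. The rises are led by INTS8 (0.27, adjusted p = 1.7e-04), RBM7 (0.23, adjusted p = 0.0051) and INTS13 (0.18, adjusted p = 0.017, edgeR). INTS8 and INTS13 are subunits of the Integrator complex, which ends transcription of many noncoding RNAs, and RBM7 guides the nuclear exosome. The falls are led by MATR3 (-0.36, adjusted p = 0.033), EXOSC6 (-0.26, adjusted p = 0.0019), a subunit of the exosome, and INTS9 (-0.23, adjusted p = 0.026, edgeR), another Integrator subunit. The MATR3 value belongs to ENSG00000280987 (52.9 ± 6.72 to 41.2 ± 8.36 CPM). The far more abundant ENSG00000015479 of the same symbol is at -0.081 (adjusted p = 0.12), and how reads are split between these near-identical entries is uncertain. Integrator subunits thus stand on both sides.

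Of 5 genes for paraspeckle proteins, 3 are lower and 1 is higher in shSTBD1. Over all tested genes 7.54% are lower and 8.22% higher. SFPQ, which binds NEAT1 and is needed for paraspeckles to form, averages 522 CPM (SD 8.23, n = 3) with shControl and 451 CPM (SD 8.80) with shSTBD1, or -0.21 on the log2 scale (adjusted p = 1.8e-04, edgeR). RBM14 (-0.21, adjusted p = 0.0013) and PSPC1 (-0.13, adjusted p = 0.024, edgeR) are lower too. HNRNPK, which takes part in making the long form of NEAT1, is higher by 0.11 on the log2 scale (SE 0.029, adjusted p = 0.018, edgeR), from a mean of 797 CPM (SD 6.18) to 858 CPM (SD 4.72). NONO, the partner of SFPQ, is at 0.046 (adjusted p = 0.33). The values by library are in the plot of nuclear body genes. These are RNA levels, and neither paraspeckles nor the proteins were measured. These 5 genes were set side by side after their values were seen.

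**Figure D4:**
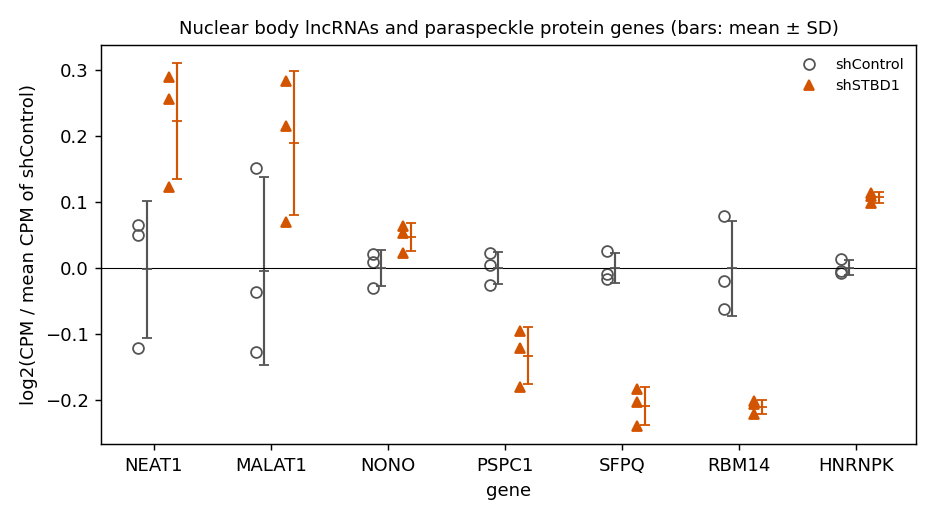
Each library's CPM over the shControl mean, on the log2 scale, for NEAT1, MALAT1 and the genes of 5 paraspeckle proteins (open circles shControl, triangles shSTBD1, bars mean ± SD of 3 libraries). NEAT1 and HNRNPK are higher in shSTBD1, and PSPC1, SFPQ and RBM14 are lower; MALAT1 groups overlap.

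LINC00511 has the largest fall. LINC00511 (ENSG00000227036, chromosome 17, 72290091 to 72640472), an lncRNA raised in several cancers, is at 19.997, 18.6 and 20.4 CPM in shControl and 13.2, 14.6 and 14.1 in shSTBD1. The groups are far apart. It falls by 0.49 on the log2 scale (SE 0.073, adjusted p = 2.2e-04, edgeR) and is called under each of the 14 other settings. LINC01128 falls to a like extent, -0.41 (standard error 0.061, adjusted p = 2.2e-04, edgeR), from 27.2, 26.5 and 28.5 CPM to 19.8, 20.6 and 21.3. SLC25A25-AS1 (-0.45, adjusted p = 0.0087), PSMA3-AS1 (-0.29, adjusted p = 0.0077) and BAIAP2-DT (-0.26, adjusted p = 0.0066, edgeR) are described with their neighbours.

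The called genes of this paragraph each lose the call when 1 library is left out, and for most of them any of several libraries has this effect. Among the rises, LINC00861 (0.39, adjusted p = 0.024) is not called without shControl replicate 2 (0.086), shControl replicate 3 (0.069) or shSTBD1 replicate 1 (0.12). HERPUD2-AS1 (0.28, adjusted p = 0.041) keeps the call only without shControl replicate 2, and the adjusted p runs from 0.060 to 0.15 without any other library. LINC01123 (0.22, adjusted p = 0.041, edgeR) also keeps it only without shControl replicate 2, with 0.084 to 0.16 otherwise. Among the falls, LINC00963 (-0.23, adjusted p = 0.017) is not called without shControl replicate 3 (0.070), shSTBD1 replicate 2 (0.080) or shSTBD1 replicate 3 (0.073). ENSG00000260917 (-0.20, adjusted p = 0.017) is not called without shSTBD1 replicate 2 (0.084). C1RL-AS1 (-0.26, adjusted p = 0.026) is not called without shControl replicate 1 (0.055), shControl replicate 3 (0.076), shSTBD1 replicate 2 (0.13) or shSTBD1 replicate 3 (0.077). For LINC03061 (-0.20, adjusted p = 0.046) the call ends whichever library is left out (0.061 to 0.14). ENSG00000272405 has the smallest change of those called, -0.12 (adjusted p = 0.045, edgeR), and is called only without shControl replicate 1, with 0.064 to 0.17 otherwise.

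Of the 10 members on the lists of genes linked to colorectal cancer, to low oxygen or to p53, 4 are called (40%, against 15.8% of all tested genes, and the lists share members): UCA1, MALAT1, LINC00511 and NEAT1. Of 8 members that have been linked to colorectal cancer, UCA1 and MALAT1 are higher and LINC00511 is lower. The other 5 do not pass: CASC19 (log2 fold change 0.15, adjusted p = 0.16) and PVT1 (0.14, adjusted p = 0.39), both near MYC, CYTOR (-0.21, adjusted p = 0.17), MIR4435-2HG (0.017, adjusted p = 0.92) and LINC01234 (-0.026, adjusted p = 0.82, edgeR). The list of genes that respond to low oxygen is short, with 8 entries, and only 2 of them, NEAT1 and UCA1, are members. Both are higher, as are 8.22% of all tested genes. Members outside the list were not sorted by their response to low oxygen. Of the 3 on the list of genes that respond to p53 (NEAT1, PVT1 and MIR34AHG) NEAT1 is higher, and MIR34AHG misses the threshold (0.30, adjusted p = 0.055, edgeR) with 7.79, 8.29 and 9.49 CPM in shControl and 10.9, 10.6 and 9.78 in shSTBD1. Its groups do not overlap. PRECSIT, whose name ties it to p53 without giving a direction, was not on that list and is higher. Whether its rise bears on p53 was not tested.

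None of 3 cytoplasmic lncRNAs passes the test. Their summed level does not overlap between the groups (517 to 551 CPM in shControl, 505 to 515 in shSTBD1). The groups also do not overlap in 33.6% of all tested genes, and most of the sum is NORAD. NORAD (ENSG00000260032), which is induced by DNA damage, is at 399, 374 and 385 CPM in shControl and 368, 369 and 364 in shSTBD1, so that every shSTBD1 library is lower. The log2 fold change is only -0.072 (standard error 0.032) and does not pass (adjusted p = 0.14, edgeR). OIP5-AS1, which binds the RNA-stabilizing protein HuR, stands at -0.0047 on the log2 scale (SE 0.033, adjusted p = 0.95, edgeR). CYTOR is at 13.9, 11.4 and 12.8 CPM in shControl and 12.5, 10.4 and 9.98 in shSTBD1, so its groups overlap, and its log2 ratio is -0.21 (SE 0.10, adjusted p = 0.17, edgeR). Of these 3, 1 has an unadjusted p under 0.05 in edgeR and also 1 in DESeq2. On X inactivation and imprinting, FTX (-0.091, adjusted p = 0.39) and JPX (0.086, adjusted p = 0.67, edgeR), both activators of XIST, and KCNQ1OT1 do not pass, and none of these 3 has an unadjusted p under 0.05 in edgeR or DESeq2. HOXA10-AS, from the HOXA cluster, is at -0.21 on the log2 scale (adjusted p = 0.20, edgeR), with 62.3% of its exon bases shared with other genes. ENSG00000264112, the gene at rank 10, is at -0.084 on the log2 scale (adjusted p = 0.22, edgeR).

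Some of the 150 are precursors of microRNAs. By position, 13 of them hold 22 microRNA genes of the RefSeq table on their own strand. The list of host genes holds 9 members, among them PVT1, which is not among the 13, so the count by position may be short. Of those 9 MIR100HG alone is called (11.1%, against 15.8% of all tested genes). MIR100HG (ENSG00000255248) is at 55.0, 56.9 and 57.9 CPM in shControl and 67.0, 61.5 and 68.5 in shSTBD1, with no overlap. edgeR gives a log2 ratio of 0.21 with a standard error of 0.047 and an adjusted p of 0.0055. Its introns hold 3 well-studied microRNAs on the minus strand of chromosome 11. Their mature forms from RefSeq (GRCh38.p14), 5′ to 3′ with the seed (bases 2 to 8) in capitals, have 3 different seeds:
hsa-miR-100-5p: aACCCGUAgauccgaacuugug
hsa-let-7a-5p: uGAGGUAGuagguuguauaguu
hsa-miR-125b-5p: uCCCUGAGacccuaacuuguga

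The other hosts do not pass. MIR222HG (log2 fold change 0.16, adjusted p = 0.39), DLEU2 (0.010, adjusted p = 0.95) and MIR34AHG are of interest since their products are known to act in tumours. The pairs from MIR222HG and from DLEU2 share a seed, as these sequences show with the same capitals:
hsa-miR-221-3p: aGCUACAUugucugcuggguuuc
hsa-miR-222-3p: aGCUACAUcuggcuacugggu
hsa-miR-15a-5p: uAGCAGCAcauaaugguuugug
hsa-miR-16-5p: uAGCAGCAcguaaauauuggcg
hsa-miR-34a-5p: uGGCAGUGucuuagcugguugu

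CYTOR and MIR4435-2HG, on chromosome 2, both hold the same mature microRNA, hsa-miR-4435 (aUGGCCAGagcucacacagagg). FTX, MIR9-1HG (0.056, adjusted p = 0.66), MIR600HG (-0.079, adjusted p = 0.56, edgeR) and PVT1 do not pass either. Levels of the mature microRNAs were not measured.

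The shares called in this paragraph stand against 15.8% of all tested genes. By name, the antisense (-AS) genes are the largest class with 41 members, of which 2 are higher and 3 lower (12.2% called, median log2 fold change -0.023). Of the 23 with LINC names 3 are higher and 4 lower (30.4% called, median -0.067). Of 7 divergent (-DT) genes 1, BAIAP2-DT, is lower (14.3%), and MUC20-OT1 (-0.036) is the only overlapping transcript. 44 members have no symbol, and 1 of them is higher and 3 lower (9.09% called). By structure, 34 have a single exon, of which 4 are called (11.8%). Differences between these classes were not tested.

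Without strand, reads of any overlapping genes on opposite strands cannot be told apart. In GENCODE 44, 123 of the 150 share exon bases with another gene, and 18 of these are called (14.6%, against 15.8% of all tested genes). Among the 27 that share none, 1 is higher (PRECSIT) and 3 lower (ENSG00000260917, BAIAP2-DT and LINC03061), or 14.8% called, and their median log2 fold change is -0.081. In 33 members more than 50% of the exon bases are shared, and the 3 of them that are called (9.09%) are MALAT1, ENSG00000258232 and ENSG00000260121. In 20 members RSEM's posterior standard deviation exceeds 5% of the count, which marks shared reads. None of these 20 is called by edgeR, where 4 have an unadjusted p under 0.05, or by DESeq2, where 1 has.

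ENSG00000258232 and ENSG00000260121 share most of their exon bases with a coding gene on the other strand. RSEM's posterior standard deviation is 3.25% and 3.31% of their counts. Whether reads of the coding genes are among those counts was not tested, since the use of strand is not known. ENSG00000258232 lies on the other strand from TUBA1C, a tubulin gene whose exons cover 97.9% of its exon bases, and is at 76.7, 99.0 and 79.9 CPM in shControl and 98.6, 103 and 106 in shSTBD1. The groups overlap by 1 library. It rises by 0.27 on the log2 scale (adjusted p = 0.014), and TUBA1C rises by 0.12 (adjusted p = 0.017, edgeR). The call of ENSG00000258232 ends without shControl replicate 3 (adjusted p = 0.066), shSTBD1 replicate 2 (0.065) or shSTBD1 replicate 3 (0.069). ENSG00000260121, named here after its values were seen, shares 77.3% of its exon bases with PIEZO1, a stretch-gated ion channel gene on the other strand. It is at 17.6, 20.3 and 22.5 CPM in shControl and 16.8, 15.6 and 17.6 in shSTBD1, and the highest shSTBD1 value is just above the lowest of shControl. On the log2 scale it is at -0.27 (adjusted p = 0.042) and PIEZO1 at -0.14 (adjusted p = 0.0062, edgeR). Without shControl replicate 1 the call of ENSG00000260121 holds, and without any other library the adjusted p runs from 0.059 to 0.18.

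SLC25A25-AS1 moves the other way from the gene it overlaps. SLC25A25 encodes a mitochondrial carrier of ATP and phosphate, and 665 exon bases (10.4% of those of SLC25A25-AS1) are shared on opposite strands. SLC25A25-AS1 (chromosome 9, 128108581 to 128118693) is at 10.6, 11.2 and 10.1 CPM in shControl and 8.80, 6.71 and 7.97 in shSTBD1. SLC25A25 is at 20.2, 20.1 and 21.6 CPM in shControl and 30.1, 34.1 and 34.3 in shSTBD1. Neither gene's groups overlap, and the log2 ratios are 0.67 for SLC25A25 (SE 0.065, adjusted p = 2.6e-06, edgeR) and -0.45 for SLC25A25-AS1 (SE 0.11). The call of SLC25A25-AS1 ends without shSTBD1 replicate 2 (adjusted p = 0.064, edgeR). It stands alone among the 65 opposite-strand pairs with a tested coding gene in that both genes are called in opposite directions, and in 34 of the 65 the signs are the same (Pearson's r = -0.067 across pairs, with shared reads possible and some coding genes in more than 1 pair).

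28 members start within 1 kb of a coding gene on the other strand, head to head with it. In 18 of the 26 with a tested partner the signs of the fold changes are the same (Pearson's r = 0.30 across pairs, a description only). Some of these pairs, such as GABPB1-AS1 and GABPB1, also share exon bases on opposite strands. They are counted in both sets, and shared reads are possible there too. 6 of these 26 partners are called, where 15.8% of all tested genes are, and in 1 pair both genes are called. That pair is BAIAP2-DT and BAIAP2, which encodes an adaptor of the actin cytoskeleton and starts 241 bases away. BAIAP2-DT is at 23.1, 22.9 and 23.2 CPM in shControl and 19.03, 19.4 and 19.3 in shSTBD1, and BAIAP2 at 69.5, 68.9 and 71.3 against 58.3, 63.3 and 62.7. The groups are separate in both, with log2 fold changes of -0.26 (standard error 0.060) and -0.18 (standard error 0.043, adjusted p = 0.0076, edgeR). The exons of BAIAP2-DT overlap no other gene.

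**Figure D5:**
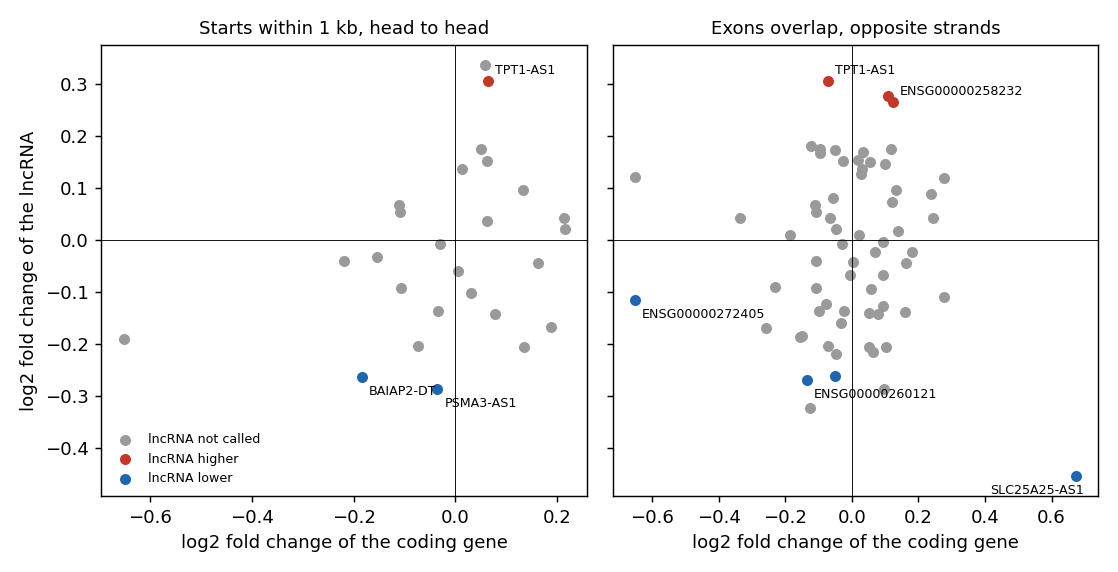
Log2 fold change of the lncRNA against that of its coding neighbour, for 26 head to head pairs (left) and 65 pairs with overlapping exons on opposite strands (right), coloured by the call of the lncRNA. BAIAP2-DT lies with its neighbour at the lower left, and SLC25A25-AS1 lies alone at the lower right.

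Another 2 called lncRNAs start near a coding gene that is not called. TPT1-AS1 starts 61 bases from TPT1, which encodes the abundant translationally controlled tumour protein. It is at 12.2, 13.2 and 11.6 CPM in shControl and 17.4, 14.0 and 14.5 in shSTBD1, with no overlap but a wide spread in shSTBD1. The lncRNA rises by 0.31 on the log2 scale (SE 0.093, adjusted p = 0.034), while TPT1 is at 0.063 (SE 0.029, adjusted p = 0.15, edgeR). The call ends without shControl replicate 3 (adjusted p = 0.11), shSTBD1 replicate 1 (0.17) or shSTBD1 replicate 3 (0.053). PSMA3-AS1 starts 370 bases from ARID4A, which encodes a chromatin protein that binds RB. It is at 22.7, 23.1 and 20.8 CPM in shControl and 18.98, 17.8 and 18.003 in shSTBD1, and the groups are separate. The lncRNA is at -0.29 on the log2 scale (SE 0.067) and ARID4A at -0.036 (SE 0.086, adjusted p = 0.83, edgeR). Whether the lncRNA differs from its neighbour within these pairs was not tested. GABPB1-AS1 (-0.092, adjusted p = 0.14) and GABPB1 (-0.11, adjusted p = 0.32, edgeR), which encodes a subunit of the ETS factor GABP, have like values and do not pass. Among the other coding genes next to or overlapping the genes named above, TRIM13, a ubiquitin ligase gene that shares 690 exon bases with DLEU2 on the other strand, is lower. It averages 37.6 CPM (SD 1.52) with shControl and 33.1 CPM (SD 0.42) with shSTBD1, with a log2 ratio of -0.18 (SE 0.052, adjusted p = 0.022, edgeR), while DLEU2 is at 0.010. The rest do not pass: RBP5 (-0.051), HERPUD2 (0.11), SLC25A30 (-0.072), OIP5 (0.093), ARMH4 (-0.010), BLID (0.11), BCAN (-0.65), NUP153 (-0.073), MUC20 (-0.49), CHD2 (0.086), KCNQ1 (-0.34), STRBP (-0.058), BCL2L11 (0.14), HOXA10 (0.050), CSTF3 (0.057) and ENSG00000266086 (0.57). BCAN, BLID and RBP5 average below 1 CPM in both groups.

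The promoters of the 3 called lncRNAs with a coding gene head to head are shown because both genes start within 1 kb on opposite strands. Whether 1 stretch of DNA serves both directions was not tested. The windows are from RefSeq (GRCh38.p14), on the strand of the lncRNA, 5′ to 3′, from 250 bases before to 50 after its start. BAIAP2-DT is at chr17:81034670-81034969 (minus strand), PSMA3-AS1 at chr14:58298088-58298387 (minus strand) and TPT1-AS1 at chr13:45341095-45341394 (plus strand). Capitals mark every match on either strand to TATAAA (the TATA box), CCAAT (bound by NF-Y), CCGGAAG (bound by ETS factors), CACGTG (the E-box) or TGACTCA (bound by AP-1):
BAIAP2-DT: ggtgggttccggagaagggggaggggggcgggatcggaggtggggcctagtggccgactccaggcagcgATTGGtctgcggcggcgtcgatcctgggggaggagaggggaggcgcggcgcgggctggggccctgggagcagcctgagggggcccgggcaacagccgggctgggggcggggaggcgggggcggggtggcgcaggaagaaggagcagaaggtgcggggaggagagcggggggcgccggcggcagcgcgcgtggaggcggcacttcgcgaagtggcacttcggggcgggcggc
PSMA3-AS1: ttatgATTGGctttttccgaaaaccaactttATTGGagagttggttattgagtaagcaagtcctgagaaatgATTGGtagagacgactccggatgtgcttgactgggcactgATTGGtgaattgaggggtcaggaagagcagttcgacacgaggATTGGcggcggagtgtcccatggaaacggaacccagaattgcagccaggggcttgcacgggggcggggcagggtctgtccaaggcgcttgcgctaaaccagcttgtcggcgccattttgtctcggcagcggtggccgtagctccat
TPT1-AS1: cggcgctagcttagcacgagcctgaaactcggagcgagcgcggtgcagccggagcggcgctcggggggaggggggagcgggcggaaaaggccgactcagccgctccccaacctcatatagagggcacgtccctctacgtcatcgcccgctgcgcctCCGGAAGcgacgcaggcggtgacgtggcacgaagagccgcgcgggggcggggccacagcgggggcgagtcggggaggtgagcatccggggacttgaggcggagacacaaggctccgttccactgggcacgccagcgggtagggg

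The PSMA3-AS1 window holds CCAAT 5 times, each on the other strand (printed as ATTGG), and the BAIAP2-DT window holds it 1 time. TPT1-AS1 holds 1 CCGGAAG and no CCAAT. RefSeq has such windows for 78 of the 150, of which 13 belong to called genes. CCAAT is in 33 of the 78 (42.3%, against 35.7% of 27305 promoters of all genes), CCGGAAG in 13 (16.7% against 10.7%), CACGTG in 10 (12.8% against 7.43%), TGACTCA in 8 (10.3% against 4.92%) and TATAAA in 4 (5.13% against 11.9%). In the 13 windows of called genes CCAAT is found in 5, TGACTCA in 2 (LINC00963 and PRECSIT) and CCGGAAG in 1. The median GC content is 63.5% in the 78 and 58.3% in all. A match is only a run of letters, and binding was not measured.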

How the data were processed

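RNA of 3 shControl and 3 shSTBD1 HCT116 cultures was sequenced as paired-end reads, 1 library each. The authors used STAR 2.7.1a for alignment (hg38, gene models of Ensembl release 93) and estimated gene abundance with RSEM 1.3.1. The deposited expected count per gene is not normalized, and the deposited TPM is divided by effective length and summed to a fixed total. RSEM's effective lengths and the posterior standard deviations of its counts, other columns deposited by the authors, were used to describe genes. The paper names the NEBNext Ultra RNA library kit and does not describe it as keeping strand. Whether the counting used strand is not given in the sources used here. GENCODE release 44 (GRCh38) gave gene types, symbols and exons for 57754 of 58395 genes, and RefSeq (GRCh38.p14) gave promoters, microRNAs and 18S rRNA genes.

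The 150 members and all gene lists were chosen with earlier results of these data known. Samples were grouped by their labels. Expected counts were rounded, filtered with filterByExpr, scaled by TMM and tested with glmQLFTest, the quasi-likelihood test of edgeR, two-sided (edgeR 4.0.16, R 4.3.3), with Benjamini-Hochberg adjustment over the 15566 genes tested. CPM are TMM-scaled. Totals of 17689097 to 21668274 counts leave a median standard error of 0.085 on the log2 fold change of the 150 genes. A gene is called higher or lower at an adjusted p under 0.05. Named are STBD1, the first 10 members by count, the called members without overlap of the groups (up to 10 in each direction), members on lists by role, their coding neighbours (starts within 1 kb head to head, or shared exon bases), the last 2 members and the first 2 genes outside, and the 3 largest rises and falls among called processing and decay proteins. Some genes on the lists are counted but not reported here by name. The fits were tested on simulated counts. Alternatives were DESeq2 1.42.0, limma 3.58.1 on log2 of TPM with 1 or 0.1 added, other scalings, filters and member sets, the replicate number as a block, and each library left out in turn.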

Additional observations from a re-analysis of the deposited data

How the results depend on the processing

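Of the 11 higher and 11 lower lncRNAs, DESeq2 calls 5 and 5, and limma on log2(TPM + 1) and on log2(TPM + 0.1) calls 1 and 1. Leaving out 1 library gives 6 to 12 higher and 6 to 14 lower. The first 75 genes hold 6 higher, the first 300 hold 18 lower, and the 27 genes that share no exon bases hold 1 higher and 3 lower, since fewer or more genes are counted. The median log2 fold change of -0.037 is -0.026 with library size in place of TMM, -0.048 with limma on log2(TPM + 0.1), -0.0097 for the first 150 by TPM, -0.081 without genes that share exon bases, -0.025 without genes whose posterior standard deviation is over 5%, and -0.035 to -0.024 with 1 library left out. Of the 55 processing and decay proteins (5 higher, 13 lower), DESeq2 calls 4 and 5, beside 14.2% of the genes to which it gives an adjusted p. Both limma fits call 0 of them higher, with 2 at an unadjusted p under 0.05, and 2 lower, where limma on log2(TPM + 1) calls 1.88% of all tested genes. With 1 library left out 2 to 4 are higher and 5 to 11 lower. STBD1 has -0.54 and -0.65 in the limma fits and no longer passes (adjusted p = 0.065 and 0.067). ENSG00000280800 (-0.20) runs from -0.35 to 0.11 with 1 library left out, and reverses without shControl replicate 1. Of 644 values of 46 named genes under the alternatives, 109 lose the call, 5 gain it and this 1 reverses. The causes of these shifts were not tested. Under the replicate block 11 are higher and 10 lower and the median is -0.037. The replicate numbers do not pair the libraries: same-numbered libraries correlate by 0.071, 0.068 and -0.0084 in their deviations from the group means. The median standard error is 0.10 in the last 50 ranks, and how much of it is counting error was not tested.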
